A study of Homo sapiens with 3 samples.

Results

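The 8 genes described here are the EGF receptor gene EGFR, its relative ERBB2 and 6 genes of the ligands of this receptor family, AREG, EREG, HBEGF, TGFA, NRG1 and BTC. They were chosen by name, with earlier results of these data known. Every probe on the array that carries 1 of these symbols was taken. This gave 15 of the 41000 probes and 8 of the 17084 genes with a RefSeq messenger RNA accession. The cells were 1205Lu, a human melanoma line taken from a lung metastasis that WM793 melanoma cells formed as a xenograft. OM was the original monolayer, kept for 14 days in RPMI-1640 with 10% FCS. MB were melanoma bodies, adherent three-dimensional aggregates that formed over 14 days in hESC medium, which holds 20% KnockOut serum replacement in DMEM/F-12 in place of FCS. NM was the new monolayer that grew from such bodies when 14 days of hESC medium were followed by 10 days in the standard medium, with residual bodies removed before RNA was made. All 3 populations descend from 1 line, and each was measured once, on 1 Cy3 array of the same slide. Medium and growth form changed together, so their parts cannot be told apart, and neither can fewer cells of a kind and less RNA per cell.

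EGFR is a receptor tyrosine kinase at the cell surface. TGF-alpha (TGFA), amphiregulin (AREG), epiregulin (EREG), heparin-binding EGF-like growth factor (HBEGF) and betacellulin (BTC) are made as membrane-bound precursors, are cut free by metalloproteases and bind EGFR, with HBEGF, BTC and EREG also binding ERBB4. Neuregulin 1 (NRG1) binds ERBB3 and ERBB4 instead, and ERBB2, which has no known ligand of its own, pairs with the other receptors. In melanocytes and melanoma the receptors signal through RAS and the MAP kinase cascade, which ends in ERK.

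Signals are given in arbitrary units (a.u.) as the scanner software wrote them, after local background subtraction and before any scaling. For ratios and folds, each array was first scaled by its average over the housekeeping genes GAPDH, ACTB and HSP90AA1. The divisor relative to OM was 0.978 on MB and 0.877 on NM, so unscaled signals on NM understate the scaled level. Since each population has 1 array, no test across samples was possible and no p-value is given, and precision is limited by how few arrays there are. Replicate spots show the technical spread alone. Between MB and OM, single spots of 100 to 1000 a.u. had an SD of 0.08 on the log2 scale, a 1.06-fold difference. Between 19.4 a.u. (MB) and 29.1 a.u. (NM), with 20.9 a.u. on OM, lay the lowest signals that the software marked as well above background. A signal not well above background enters a fold at the higher of its own value and this lowest signal, and the fold is then written as at least N-fold. The 3 comparisons share arrays, and each ratio of NM to MB is fixed by the other 2, so their values are set side by side and none supports another.

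Detection, meaning a signal well above background, held on all 3 arrays for 9 of the 15 probes, on MB alone for 2 and on no array for 4. The 9 belong to 5 genes, EGFR, ERBB2, NRG1, TGFA and HBEGF. AREG and BTC were seen on MB alone, each on a single spot, and EREG on no array. No spot of these genes was saturated.

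**Figure D1:**
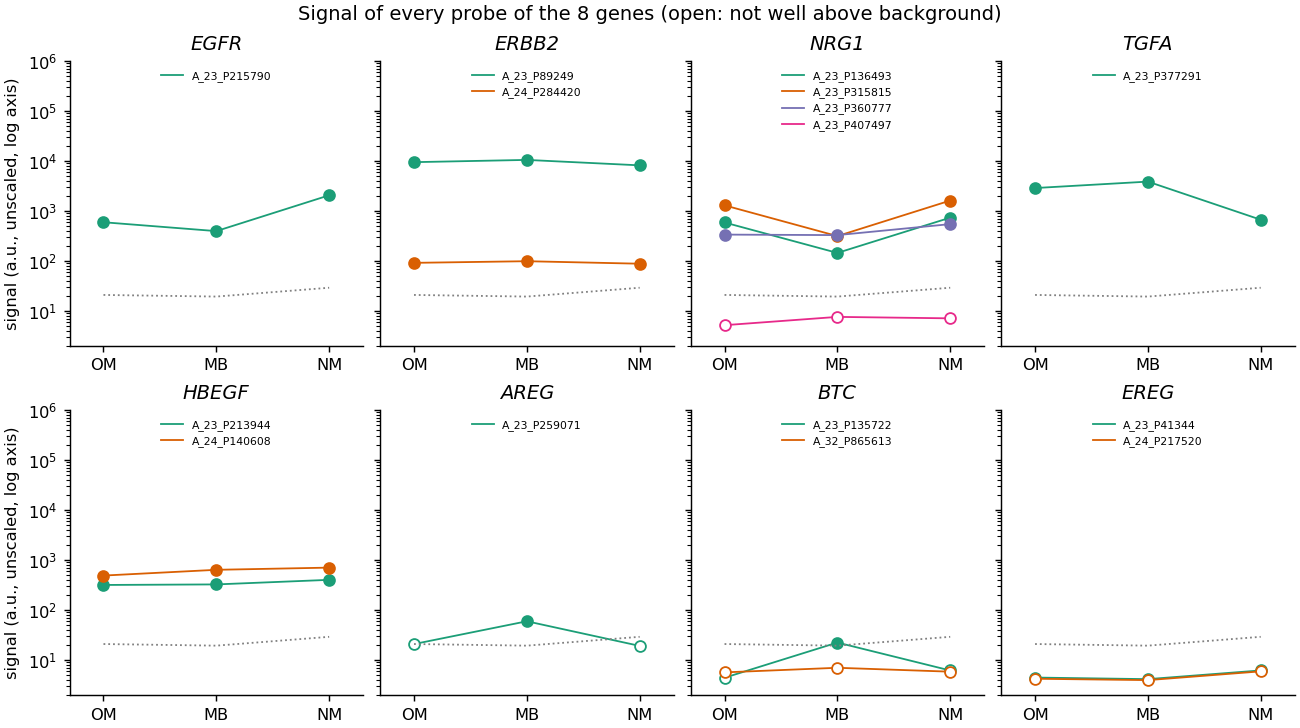
Unscaled signal (a.u., log axis) of each of the 15 probes on the OM, MB and NM arrays, with 1 panel per gene and 1 line per probe. Filled circles are well above background, open circles are not, and the dotted line joins the lowest signal well above background on each array. The EGFR line is highest on NM and the TGFA line lowest there, while 2 of the 4 NRG1 lines dip on MB.

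At 2-fold or more, a rule of size and not a test, AREG was higher and NRG1 lower on MB than on OM, out of 7 members with a signal on at least 1 of these arrays. The share of all genes past the same limits was 6.62% higher and 4.12% lower. On NM against MB, EGFR and NRG1 were higher and TGFA lower, again of 7 members, where 9.19% of all genes were higher and 10.4% lower. On NM against OM, EGFR was higher and TGFA lower, of 5 members, against 4.96% and 3.05% of all genes.

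The rule in the study's methods asks for a 5-fold difference and a raw signal above 100 a.u., here on the brighter array. No member passed it for MB against OM, where 1.57% of all genes did, and none passed it for NM against OM, where 0.724% did. For NM against MB 3 of the 7 members passed it, EGFR, TGFA and NRG1, where 2.74% of all genes did. The 3 lay between 5.20-fold and 5.80-fold, close to the limit. Over the 12 alternatives EGFR passed it in every one. Settings on the choice of probe or on detection could not change its call, since its 1 probe was detected on every array. TGFA missed it under spike-in, 75th percentile, geometric mean and quantile scaling, with normexp and without background subtraction, at 4.71-fold to 4.90-fold lower. NRG1 missed it with normexp, at 4.94-fold higher, and when its probes were averaged, at 3.91-fold. The median log2 ratio over the 5 measured members was 0.18 for MB over OM, 0.30 for NM over MB and 0.51 for NM over OM. Over all measured genes it was 0.14, -0.03 and 0.12, so the arrays as a whole were shifted by that much under this scaling. With 5 genes that moved in opposite directions, the members' median says little about any of them.

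**Figure D2:**
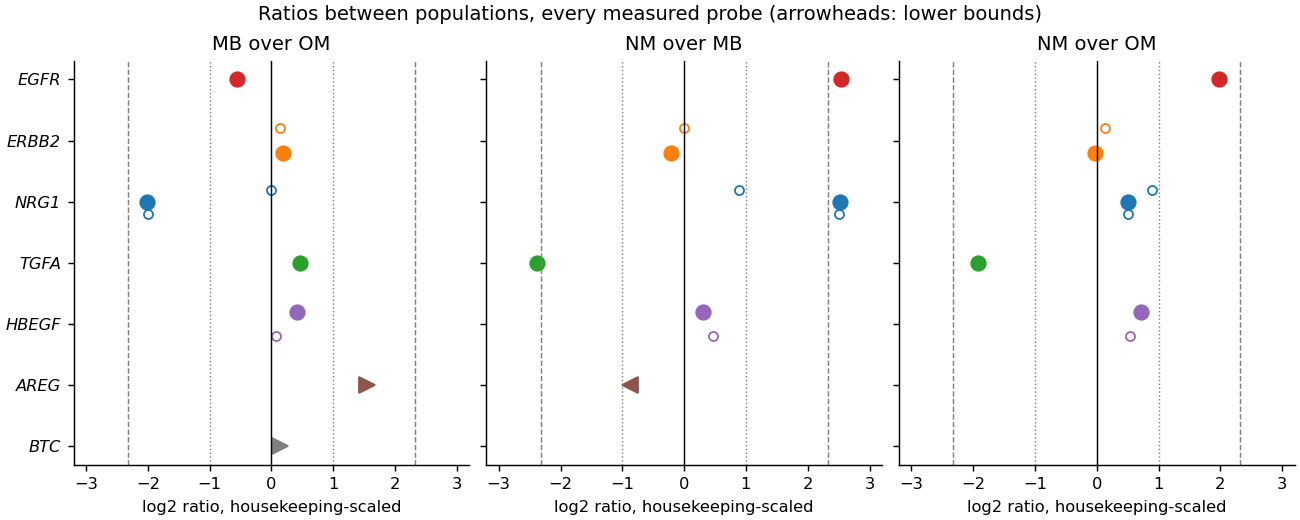
Log2 ratio of housekeeping-scaled signals for every member probe with a signal, 1 panel per comparison. Large filled circles are the brightest probe of each gene, small open circles its other probes, and arrowheads lower bounds for AREG and BTC; dotted lines mark 2-fold and dashed lines 5-fold. EGFR, NRG1 and TGFA stand past the dashed lines in the middle panel only.

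EGFR is measured by 1 probe, A_23_P215790, printed in 10 spots and placed by the files at chr7:55049050-55049109 (hg17, plus strand). OM gave 596 ± 21.2 a.u., MB 396 ± 17.1 a.u. and NM 2062 ± 85.7 a.u. (SD over the 10 spots of each array). The spots did not overlap between arrays. They ran from 560 to 631 a.u. on OM, from 368 to 420 a.u. on MB and from 1934 to 2188 a.u. on NM. After scaling, EGFR was 1.47-fold lower on MB than on OM (log2 -0.56, SD over spots 0.08), 5.80-fold higher on NM than on MB (log2 2.54, SD 0.09) and 3.95-fold higher on NM than on OM (log2 1.98, SD 0.08). The order of its level was thus MB, OM and NM from lowest to highest, with each step larger than the spread over spots. Less the median of all genes, the log2 ratio was -0.69 for MB over OM and 1.87 for NM over OM. Of the 12547 genes measured on both NM and OM, 77 had a higher ratio than EGFR. The level on NM thus lay above that of the original monolayer, although both populations were harvested from the standard medium.

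ERBB2, the partner receptor, changed least of the 5. Its brighter probe, A_23_P89249 at chr17:35138355-35138414 (plus strand), gave 9491 ± 222 a.u. on OM (10 spots), 10529 ± 123 on MB and 8196 ± 124 on NM (8 spots each, 2 left out as outliers on either array). The log2 ratio was 0.18 for MB over OM, -0.21 for NM over MB and -0.02 for NM over OM, with an SD over spots of 0.04, 0.03 and 0.04. OM and NM thus differed by less than the spot spread, and MB lay above both by more than it. Which of MB and OM was higher depended on the scaling, since the log2 ratio ran from -0.12 to 0.22 over the alternatives. The ratio of NM to OM likewise ran from -0.21 to 0.13. A second ERBB2 probe, A_24_P284420, gave 91.7, 98.9 and 88.1 a.u. on OM, MB and NM, and none of its 3 ratios exceeded the single-spot spread at this brightness.

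**Figure D3:**
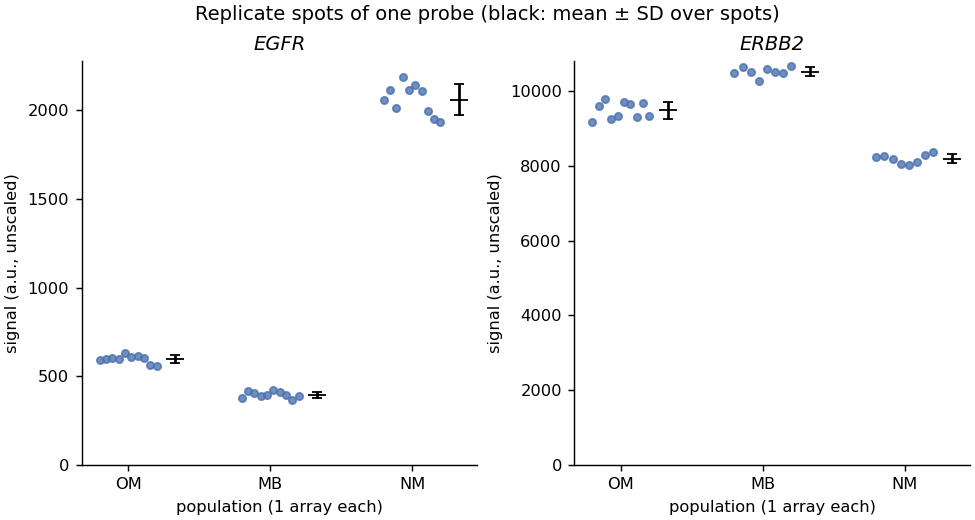
Unscaled signal (a.u., linear axis from 0) of the replicate spots of the EGFR probe and of the brighter ERBB2 probe on the OM, MB and NM arrays. Each point is 1 spot, with the outlier spots of ERBB2 (2 on MB and 2 on NM) left out, and the black mark with bars is the mean ± SD over spots, which leaves out variation between cultures. The EGFR spots separate into 3 levels with NM near 2062 a.u., while the ERBB2 spots shown stay between 8033 and 10678 a.u.

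The probes that read the same gene at separate places are shown because the results for ERBB2, HBEGF and EREG rest on more than 1 of them. The sequences are the 60-base probes as the deposited files give them, 5′ to 3′, with nothing set in capitals. The ERBB2 probe lies at chr17:35120176-35120235 (plus strand), the HBEGF probe A_23_P213944 at chr5:139695692-139695751 (minus strand), and the EREG probe A_24_P217520 between chr4:75611888 and chr4:75613454 (plus strand). The EREG probe covers 1567 bases of the genome with 60 bases of sequence, so it crosses a splice junction. Each of the 3 reads without a stop codon in at least 1 frame.
ERBB2: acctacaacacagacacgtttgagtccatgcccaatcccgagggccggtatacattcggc
HBEGF: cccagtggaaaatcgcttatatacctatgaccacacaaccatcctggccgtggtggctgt
EREG: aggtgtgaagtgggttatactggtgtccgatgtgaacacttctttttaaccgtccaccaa

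TGFA, an EGFR ligand that many tumour cells make, moved opposite to its receptor on the new monolayer. Its 1 probe, A_23_P377291 at chr2:70586974-70587033 (minus strand), gave 2879 a.u. on OM, 3873 a.u. on MB and 669 a.u. on NM. The level was similar on OM and MB, with MB 1.38-fold higher (log2 0.46), and low on NM. NM was 5.20-fold lower than MB (log2 -2.38) and 3.78-fold lower than OM (log2 -1.92). All 3 log2 ratios exceeded the single-spot SD of 0.03 to 0.04 at this brightness. The log2 ratio of MB to OM ran from 0.16 to 0.46 over the alternatives, so its size depended on the processing. Of 12547 genes, 24 had a lower ratio of NM to OM. The TGFA level, like that of EGFR, was thus further from OM on NM than on MB, in the opposite direction.

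HBEGF, which binds EGFR and ERBB4, has 2 probes that lie in separate parts of the gene. A_24_P140608 (chr5:139693236-139693295) gave 490, 639 and 706 a.u. on OM, MB and NM, and A_23_P213944, printed above, gave 318, 326 and 402 a.u. Both were highest on NM. Against OM, NM was 1.64-fold higher by the first and 1.44-fold by the second, which is past the spot spread for both (SD 0.09 on the log2 scale). On MB the probes differed, with log2 ratios to OM of 0.42 and 0.07, the second within the SD of 0.08. Over the alternatives the log2 ratio of MB to OM for HBEGF ran from 0.11 to 0.42. No ratio of HBEGF reached 2-fold.

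NRG1, the ligand of ERBB3 and ERBB4, is read by 4 probes for different transcript forms on chromosome 8, and they did not move alike. The probe for the form that the array names GGF, A_23_P315815, gave 1298 a.u. on OM, 315 a.u. on MB and 1617 a.u. on NM. The probe for GGF2, A_23_P136493, gave 589, 145 and 736 a.u. in the same order. These 2 probes share a run of 41 of their 60 bases, so they are not independent readings. By them NRG1 was 4.03-fold and 3.98-fold lower on MB than on OM, and 5.73-fold and 5.66-fold higher on NM than on MB. On NM they were 1.42-fold above OM. The probe for HRG-beta2, A_23_P360777, gave 337, 329 and 546 a.u., with MB and OM at the same level (1.00-fold) and NM 1.85-fold above OM. The probe for SMDF, A_23_P407497, gave 5.19, 7.60 and 7.11 a.u. and was not detected. The low value on MB thus held for the shared part of GGF and GGF2 and was not seen with the HRG-beta2 probe, and the array does not tell how much of the NRG1 messenger RNA each form made up. Of the 12976 genes measured on OM and MB, 75 had a lower ratio of MB to OM than the GGF probe.

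Amphiregulin, betacellulin and epiregulin are neighbours on chromosome 4, where their probes lie within 421 kb in hg17. The AREG probe, A_23_P259071 (chr4:75685553-75685612, plus strand), gave 20.9 a.u. on OM, 59.6 a.u. on MB and 19.2 a.u. on NM, and was well above background on MB alone. AREG was at least 2.92-fold higher on MB than on OM and at least 1.84-fold lower on NM than on MB. Both bounds fell when the background was treated otherwise, to 1.31-fold and 1.17-fold with normexp and to 1.53-fold and 1.23-fold without background subtraction. The BTC probe A_23_P135722 (chr4:76033017-76033076, minus strand) gave 4.42, 22.4 and 6.17 a.u., on MB just above the lowest detected signal and at least 1.10-fold higher than on OM. Against NM the bound was under 1, so no fold is given. A second BTC probe, A_32_P865613, stayed at 5.66, 6.99 and 5.84 a.u. and did not show the MB signal. The 2 EREG probes read 4.46, 4.14 and 6.19 a.u. and 4.22, 3.96 and 5.93 a.u. on OM, MB and NM and were detected on none. AREG and BTC thus each rest on 1 spot on 1 array.

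The bases before the start of EGFR, TGFA and AREG are shown as examples from genes with opposite or MB-only patterns. These 3 genes were picked with their promoter letters known to differ, so that difference is not a result. A link between motif and pattern was not tested. Sequences are from RefSeq (GRCh38.p14), 250 bases that end at the base before the first listed start, 5′ to 3′ on the gene's strand. They lie at chr7:55018767-55019016 for EGFR, chr2:70553827-70554076 (minus strand) for TGFA and chr4:74444886-74445135 for AREG, in a later build than the probes. Capitals mark 4 motifs searched on both strands. The core of a GC box was read as GGGCGG, a cyclic AMP response element as TGACGTCA, an AP-1 site as TGACTCA and a TATA box as TATAAA. None of the marked runs overlap.
EGFR: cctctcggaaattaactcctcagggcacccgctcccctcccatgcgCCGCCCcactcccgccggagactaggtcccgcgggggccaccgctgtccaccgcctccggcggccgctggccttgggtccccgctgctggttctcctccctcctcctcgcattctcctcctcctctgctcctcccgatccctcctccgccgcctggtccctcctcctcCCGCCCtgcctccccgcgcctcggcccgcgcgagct
TGFA: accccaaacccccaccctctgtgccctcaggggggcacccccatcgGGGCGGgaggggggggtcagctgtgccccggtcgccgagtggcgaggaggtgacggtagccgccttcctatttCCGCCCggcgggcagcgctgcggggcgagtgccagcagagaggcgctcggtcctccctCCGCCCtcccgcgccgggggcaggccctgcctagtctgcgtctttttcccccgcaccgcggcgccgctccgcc
AREG: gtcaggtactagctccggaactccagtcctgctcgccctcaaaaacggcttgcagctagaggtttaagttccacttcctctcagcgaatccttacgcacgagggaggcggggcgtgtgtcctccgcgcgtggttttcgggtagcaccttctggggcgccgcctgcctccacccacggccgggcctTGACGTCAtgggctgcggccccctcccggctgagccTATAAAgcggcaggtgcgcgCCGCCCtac

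The EGFR window held GGGCGG at 2 places and the TGFA window at 3, and neither held the other motifs. The AREG window held TGACGTCA, TATAAA and GGGCGG at 1 place each. Of all 35116 promoter windows of the same length, 42.6% held GGGCGG, 1.65% TGACGTCA, 4.20% TGACTCA and 10.7% TATAAA. Promoters were listed for 7 of the 8 genes. HBEGF had GGGCGG at 5 places, EREG had TATAAA at 1, and the BTC and ERBB2 windows had no match. A second, later start of EGFR had TGACTCA at 2 places and TATAAA at 2, and a second start of TGFA had no match. A match is a run of letters, and binding of a factor was not measured here.

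The receptors and ligands of the family outside the 8 genes were followed in a fixed list of 7, of which 6 have a probe. ERBB3, the receptor of NRG1, gave 737 a.u. on OM, 4055 a.u. on MB and 253 a.u. on NM by its brightest probe. It was 5.63-fold higher on MB than on OM, 14.4-fold lower on NM than on MB and 2.55-fold lower on NM than on OM. Its 2 dimmer probes, A_24_P918970 and A_24_P919096, were 2.16-fold and 6.73-fold higher on MB than on OM. On NM against MB they were 2.68-fold and at least 5.61-fold lower. On NM against OM A_24_P918970 was 1.24-fold lower, under 2-fold, and A_24_P919096 gave no ratio. ERBB3 is among the genes that the study itself selected on these arrays, so its direction is not independent evidence. On MB, the population where ERBB3 was highest, the GGF and GGF2 probes of its ligand NRG1 were lowest. NRG2, another ligand of ERBB3 and ERBB4, gave 254, 345 and 146 a.u. on OM, MB and NM, and was 2.12-fold lower on NM than on MB. ERBB4, EGF itself, EPGN (epigen, under an older name on the array) and NRG4 were detected on none of the arrays, and NRG3 matched no probe.

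**Figure D4:**
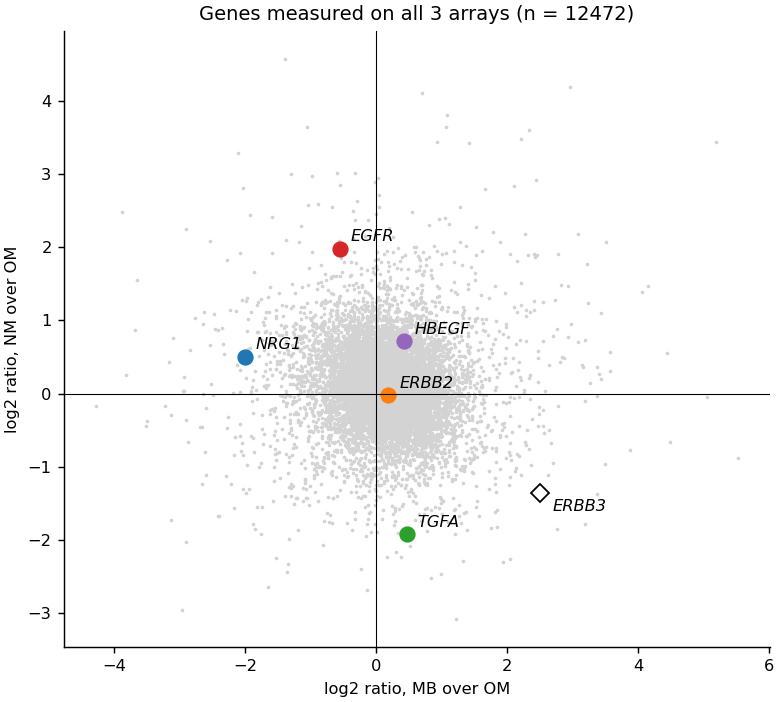
Log2 ratio of MB to OM (horizontal axis) against NM to OM (vertical axis) for the 12472 genes well above background on all 3 arrays, 1 grey point per gene. Coloured circles are the 5 members and the open diamond is ERBB3; the axes share the OM array. EGFR lies high and TGFA low on the vertical axis, NRG1 (by its GGF probe) lies far left, and ERBB2 and HBEGF lie within the cloud.

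Over these 12472 genes, the range from the lowest to the highest array was 5.80-fold for EGFR, 5.73-fold for NRG1 and 5.20-fold for TGFA, and 1.91%, 1.92% and 2.40% of genes had a wider one. The NRG1 range is that of its GGF probe, and its HRG-beta2 probe differed by at most 1.85-fold between arrays. HBEGF had a range of 1.64-fold and ERBB2 of 1.15-fold, and 38.7% and 90.1% of genes had a wider one. EGFR had the widest range of the 5, and the 5 genes nearest to its pattern were found by the distance between their pairs of log2 ratios (MB over OM and NM over OM). They were TLR1, SCG5, SFN, PBEF1 and LRRC49, at distances from 0.07 to 0.19, and 25 of 12467 genes lay within 0.5. TLR1, a receptor for bacterial lipopeptides, gave 222, 146 and 809 a.u. on OM, MB and NM. SFN, which encodes 14-3-3 sigma, gave 30.9, 20.4 and 115 a.u., near the lowest detected signals. PBEF1, the array's name for the NAD-synthesis enzyme NAMPT, gave 12227, 8256 and 38777 a.u. SCG5, a chaperone of a prohormone convertase, gave 274, 194 and 951 a.u., and LRRC49 gave 1048, 731 and 3210 a.u. With 3 arrays, and OM shared by both ratios, such likeness is a description of these arrays.

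The list of ligand release holds 11 genes, proteases that cut the precursors free, their helpers and an inhibitor, and all 11 were detected on every array. On MB against OM, 2 (18.2%) were 2-fold or more higher and 1 (9.09%) lower, beside 6.62% and 4.12% of all genes. On NM against MB 1 (9.09%) was higher and 3 (27.3%) lower, beside 9.19% and 10.4%. On NM against OM 1 (9.09%) was lower, beside 3.05%. ADAM19 and RHBDF1 passed 2-fold only narrowly for NM over MB (log2 -1.06 and -1.08), as did ADAM19 for MB over OM (log2 1.01). The counts of this list were not recomputed under the alternatives. ADAM17, the main sheddase of TGFA, AREG and HBEGF, gave 5703, 6200 and 6908 a.u. on OM, MB and NM and was 1.38-fold higher on NM than on OM, its widest difference. ADAM12, a metalloprotease that can cut HBEGF, gave 4404, 13678 and 2334 a.u., 3.18-fold higher on MB than on OM and 5.26-fold lower on NM than on MB. ADAM19, which can cut neuregulins, was 2.01-fold higher on MB than on OM and 2.08-fold lower on NM than on MB. RHBDL2, an intramembrane protease that can cut EGF, gave 1183, 383 and 899 a.u. and was 3.02-fold lower on MB than on OM. RHBDF1, an inactive rhomboid that helps ADAM17 to mature, was 2.12-fold lower on NM than on MB. RHBDF2, in the same list, gave 6904, 5136 and 7942 a.u. and was 1.72-fold higher on NM than on MB. TIMP3, an inhibitor of ADAM17, gave 133429, 119551 and 57599 a.u. and was 2.03-fold lower on NM than on OM.

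Of the 17 inhibitors and turnover genes of the receptors, 16 were detected on every array and CBLC on none. On MB against OM 1 (6.25%) was higher and 1 (6.25%) lower by 2-fold, near the 6.62% and 4.12% of all genes. On NM against MB 1 (6.25%) was higher and 2 (12.5%) lower, near the 9.19% and 10.4% of all genes. None passed 2-fold between NM and OM. LRIG1, a transmembrane protein that lowers the level of EGF receptors, gave 7505, 3495 and 7711 a.u. and was 2.10-fold lower on MB than on OM. SOCS4, an adaptor that promotes EGFR degradation, gave 107, 209 and 78.8 a.u. and was 2.00-fold higher on MB than on OM. CBL, the ubiquitin ligase of EGFR, was 2.18-fold lower on NM than on MB. The feedback inhibitor ERRFI1 gave 40938, 35225 and 29086 a.u. and did not reach 2-fold.

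Of 13 adaptor genes 12 had a probe. On MB against OM 2 (16.7%) were 2-fold or more higher and none lower, beside 6.62% and 4.12% of all genes. On NM against MB none were higher and 3 (25%) lower, beside 9.19% and 10.4%. SOS1, the exchange factor that loads RAS, gave 40.5, 119 and 46.0 a.u. and was 3.01-fold higher on MB than on OM. GAB1, a docking protein of receptor kinases, was well above background on MB alone, at 88.6 a.u., at least 3.71-fold higher than OM. CRK, an adaptor with an SH2 domain, was 2.05-fold lower on NM than on MB. GRB2 and SHC1, the first adaptors at EGFR, did not reach 2-fold in any comparison.

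All 19 genes listed as output of ERK signalling were detected on every array. Of these 4 (21.1%) were 2-fold or more higher and 1 (5.26%) lower on MB than on OM, beside 6.62% and 4.12% of all genes. On NM 1 (5.26%) was higher and 6 (31.6%) lower than on MB, beside 9.19% and 10.4%, and 1 (5.26%) was higher and 3 (15.8%) lower than on OM, beside 4.96% and 3.05%. The list's median log2 ratio was 0.45, -0.46 and 0.02 in these comparisons, beside 0.14, -0.03 and 0.12 for all genes. SPRY4, a feedback inhibitor of the pathway, gave 7108, 21479 and 3599 a.u., 3.09-fold higher on MB than on OM and 5.36-fold lower on NM than on MB. EGR1, an immediate early transcription factor, gave 6051, 14866 and 2281 a.u., with folds of 2.51 and 5.85 in the same directions. DUSP4, a phosphatase of ERK, gave 2794, 7690 and 2433 a.u., and was 2.82-fold higher on MB than on OM. SPRY1 was 3.28-fold higher on MB than on OM, at 54.7, 175 and 119 a.u. EPHA4, an ephrin receptor, gave 1004, 1679 and 241 a.u. and was 6.26-fold lower on NM than on MB. FOSL1, a subunit of AP-1, ran the other way, at 3482, 1662 and 4462 a.u., 2.05-fold lower on MB than on OM and 2.99-fold higher on NM than on MB. Whether the ERK output genes followed the receptors was not tested.

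**Figure D5:**
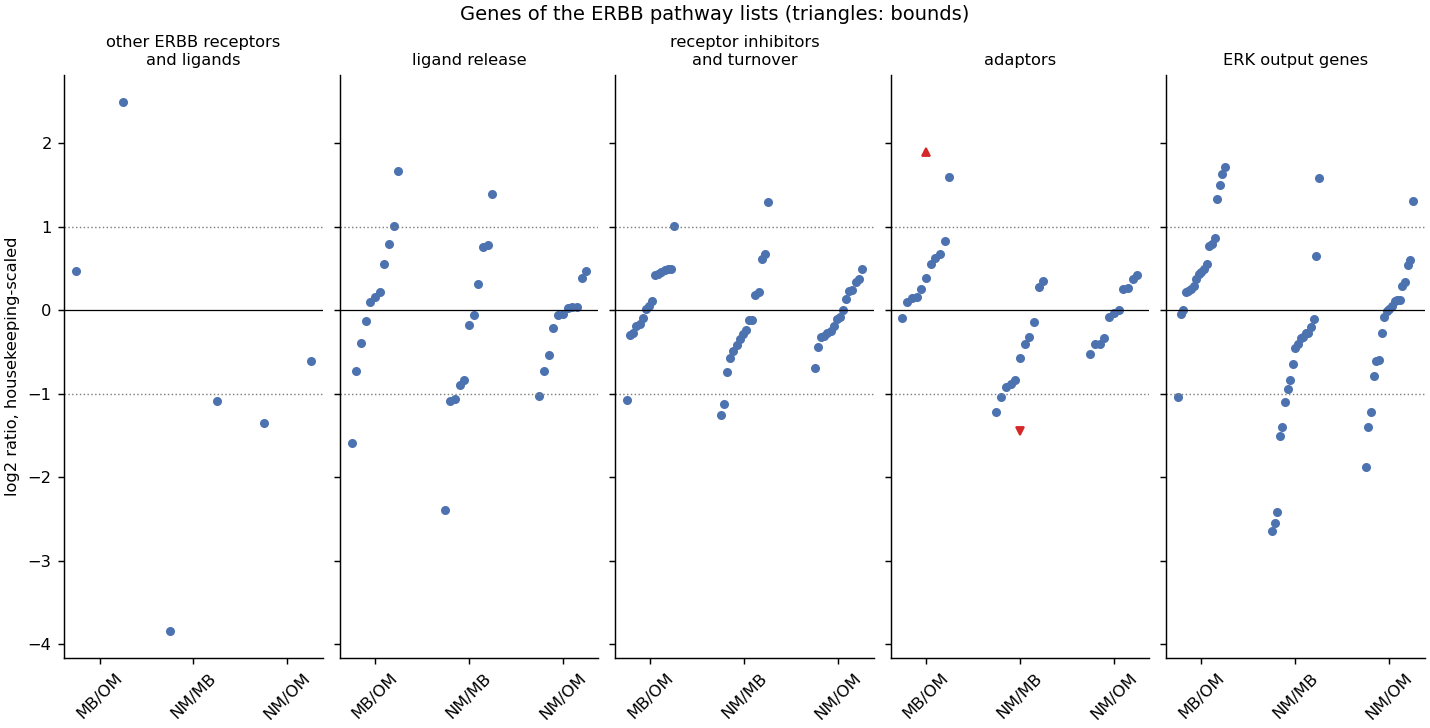
Log2 ratio (housekeeping-scaled) of each gene of the 5 pathway lists in the 3 comparisons, 1 point per gene sorted by value. Circles are measured on both arrays, triangles are bounds for GAB1 and dotted lines mark 2-fold. In the ERK output panel 6 genes lie under the lower dotted line for NM over MB and 1 above the upper one.

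Markers of cell kinds were read beside these values. Of 10 melanocyte lineage markers 7 were well above background on all 3 arrays, among them SOX10, PAX3 and S100B, and TYR and TYRP1 on none. S100B was 2.95-fold lower on NM than on MB, and GPM6B was 2.60-fold higher on NM than on OM, so the lineage genes themselves did not stay level. They summed to 35928, 58961 and 23854 a.u. on OM, MB and NM, of which S100B alone gave 25155, 43760 and 13307 a.u. Of 8 keratinocyte and epithelial markers, KRT5, KRT1, DSG3, EPCAM and CDH1 were detected on none, KRT10 and KRT14 were on all, and TP63 was on OM alone. Their summed signal was 39440, 39783 and 32807 a.u. on OM, MB and NM, nearly all of it KRT10. KRT14 was 2.85-fold lower on NM than on MB, and TP63 at least 4.45-fold lower on MB than on OM. Of 4 endothelial markers, VWF was detected on all arrays and was 2.15-fold higher on MB than on OM. PECAM1, at 87.7 a.u. on MB, was at least 4.29-fold higher there than on OM, and CDH5 was detected on none. KDR went the other way, at 26.7, 14.4 and 21.6 a.u. on OM, MB and NM. It was well above background on OM alone and at least 1.35-fold lower on MB than on OM. The summed signal of the 4 endothelial markers was 229, 501 and 137 a.u. Of 5 immune markers PTPRC was detected on none, and CD68, which is also a lysosomal gene of other cells, was 2.67-fold lower on MB than on OM. Their summed signal was 4924, 1943 and 5137 a.u., nearly all of it CD68. Of 6 fibroblast markers COL1A1, COL1A2 and LUM were detected on none, and PDGFRB was 2.50-fold higher on NM than on OM, in sums of 2244, 3162 and 3731 a.u. KRT5, CDH1, CDH5, PTPRC, COL1A1 and COL1A2 were thus not well above background. On all 3 arrays, 2 of the 8 keratinocyte and epithelial markers and 1 of the 4 endothelial markers were. So were 4 of 5 immune and 2 of 6 fibroblast markers. These included CD3E (110, 84.8 and 87.4 a.u. on OM, MB and NM), CD14 (70.3, 60.2 and 58.7 a.u.) and THY1 (960, 788 and 940 a.u.). The part of the marker changes in the values of the 8 genes was not tested.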

How the data were processed

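RNA from the 3 populations was hybridised to 3 Cy3 arrays of 1 slide. The authors deposited spot intensities in arbitrary units from Agilent Feature Extraction (version 9.5 per the submitters' processing notes), with local background subtracted and no scaling between arrays. A series value table, also deposited, repeats these intensity values within 0.1%. Each array has 43376 non-control spots for 41000 probes.

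Control and outlier spots were left out, spots of a probe averaged, and arrays divided by the arithmetic mean of GAPDH, ACTB and HSP90AA1. Of several probes of a gene, the one brightest on average over the arrays stood for it. Background shares were taken over genes with a RefSeq messenger RNA accession and a signal well above background on at least 1 array of the comparison. The rule for naming genes took every member with every probe, all other ERBB receptors and ligands, up to 6 genes past 2-fold per list, and the 5 genes nearest to the member of widest range. Other genes named in the text, such as ADAM17, ERRFI1, GRB2, SHC1 and undetected markers, were picked from the same lists after their values were seen. One immune marker that the rule names is not reported here. The members and lists were chosen with earlier results of these data known. Coordinates are hg17 as deposited. Older symbols and promoters came from RefSeq (GRCh38.p14).

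The alternatives were 75th percentile, quantile, spike-in and no scaling, the geometric mean of the housekeeping genes, normexp (limma 3.58.1, R 4.3.3, offset 50), no background subtraction, both arrays above background, outlier spots kept, other rules for several probes, and the value table. Computations used Python 3.11.15, numpy 2.4.6 and pandas 2.3.3, and plots matplotlib 3.10.9.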

Additional observations from a re-analysis of the deposited data

How the results depend on the processing

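No paired analysis was possible because each population has 1 array. Of 108 recomputed counts of members past a limit, 103 stayed within 1.5 times the reported count and 5 did not. AREG was no longer 2-fold higher on MB than on OM, which left 0 members, with normexp background correction, without background subtraction and when both arrays had to be well above background. This last setting leaves out a gene at background by its construction, and for the other 2 the cause was not tested. Without scaling, 2 members instead of 1 were 2-fold lower on NM than on MB, with AREG beside TGFA. With normexp, 1 member instead of 3 passed 5-fold for NM over MB: EGFR at 5.12-fold, with NRG1 at 4.94-fold higher and TGFA at 4.84-fold lower. In 6 further settings 2 members passed it: TGFA missed it under 75th percentile (4.80-fold), quantile (4.74-fold), spike-in (4.71-fold) and geometric mean scaling (4.87-fold) and without background subtraction (4.90-fold), and NRG1 when its probes were averaged (3.91-fold). The causes were not tested. Over the 12 alternatives the fold of NM over MB ran from 5.12 to 6.41 for EGFR and from 3.91 to 6.32 for NRG1, and TGFA was 4.71-fold to 5.79-fold lower. No member ratio past 2-fold changed sign. Counts in the gene lists were not recomputed, and some listed genes lay close to 2-fold, such as ADAM19, RHBDF1, SOCS4 and CRK. The median of all genes ran from -0.17 to 0.17 (log2) for MB over OM over the settings. Values for AREG and BTC are limited by signals close to background, and all values by the single array per population.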
